A study of Homo sapiens with 4 samples.

Results

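The keratin filament genes KRT8, KRT18, KRT19, KRT7, KRT10, KRT20, KRT23 and KRT80 were described in 4 human hepatoma cultures profiled by RNA sequencing. They were chosen by symbol, by a rule that names no measured value, but with earlier results of these data known. They are 8 of the 16370 genes listed in the count files and 8 of the 17 keratin genes listed there. Hep3B and Huh7 are established liver tumor lines and form the hepatocellular carcinoma (HCC) group. Hep3B-C and Huh7-C are the hepatic cancer stem cell (HCSC) lines that the study's laboratory derived from Hep3B and Huh7 respectively, and no drug, transgene or time point is given in the labels. Each of the 4 lines was sequenced as 1 library, so a comparison of an HCSC line with its parent sets 1 library against 1 library. Intervals within such a pair cover counting error only, and the difference between cultures of the same line was not measured.

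Keratins are the intermediate filament proteins of epithelial cells. Each filament is built from pairs of an acidic type I keratin and a basic type II keratin, so neither type forms filaments alone. Hepatocytes carry an almost pure KRT8 and KRT18 network, whereas bile duct cells and liver progenitor cells add KRT19 and KRT7, and the loss or gain of these genes is used by pathologists to read the lineage of a liver tumor.

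Of the members, KRT8, KRT7 and KRT80 are type II and lie on chromosome 12, where KRT18, the only type I keratin gene outside the type I cluster, lies beside KRT8. KRT19, KRT10, KRT20 and KRT23 are type I and lie on chromosome 17. In GRCh38 (GENCODE 29) KRT8 spans chr12:52897187-52949954 on the minus strand and KRT18 spans chr12:52948871-52952901 on the plus strand. Their annotated exons overlap by 525 bases on opposite strands, and the counting is not stated to use strand. KRT19 spans chr17:41523617-41528308, KRT23 chr17:40922696-40937634 and KRT10 chr17:40818117-40822595, all on the minus strand.

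KRT8 and KRT18 also have an unusually large set of processed pseudogenes, copies of their spliced messenger RNA set elsewhere in the genome. GENCODE 29 names 50 pseudogenes after KRT8 and 68 after KRT18, and none of them is listed in the count files. Of all 35-base windows of the transcript, 54.4% for KRT8 and 70.1% for KRT18 recur in the transcript of another annotated gene, against 7.15% for KRT19, 6.45% for KRT23 and 1.15% for KRT10. A coding stretch of 60 bases of KRT18 is printed here with the matching stretch of a pseudogene, KRT18P11, which shares 304 of the 1386 windows of KRT18. The stretch was picked for its few differing bases. It shows how little can separate reads of the gene from those of a copy at such a place, and does not stand for the whole transcript. Capitals mark the 2 bases that differ. The KRT18 stretch joins exons within chr12:52950894-52951527 and its copy in KRT18P11 lies at chrX:92460305-92460364, both on the plus strand.
KRT18: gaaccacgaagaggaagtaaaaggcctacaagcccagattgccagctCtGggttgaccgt
KRT18P11: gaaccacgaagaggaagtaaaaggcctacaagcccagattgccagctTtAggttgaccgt
How reads with several matches were assigned is not given in the sources used here. The level of KRT8 and KRT18 is therefore uncertain in a way that a counting interval does not cover.

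The libraries held 2896418 (Hep3B), 4641927 (Hep3B-C), 4537510 (Huh7) and 4333808 (Huh7-C) counts assigned to genes. Levels are given as CPM, counts scaled to these totals. A level of 3 counts, taken here as the smallest a library can show, stood at 0.646 to 1.04 CPM. As a check of the cell type, all 10 hepatocyte markers examined, among them ALB and APOA1, were listed. Their summed level was 26890 to 71600 CPM. In Huh7 SERPINA1 gave 40520 of 51540 CPM, and ALB stood at 106 CPM. All the cultures are hepatoma lines, so these markers cannot check which library is which. The squamous keratinocyte markers summed to at most 2.42 CPM, and the defining KRT5, KRT1, IVL and LOR were listed in no file. The blood and endothelial markers summed to between 3.97 and 21.7 CPM, and PTPRC, CD3E, HBB and CDH5 were listed in no file. PECAM1 gave most of the highest sum. It stood at 17 counts in Huh7 and 93 in Huh7-C (21.5 CPM), 5.73-fold higher (3.39 to 10.3).

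The keratin complement of all 4 cultures was dominated by KRT8 and KRT18. These genes together gave 88.9% of all keratin counts in Hep3B (95% exact binomial interval 88.0 to 89.8) and 99.1% in its HCSC line. In Huh7 they gave 98.4% and in its HCSC line 99.2%. All keratins made up 0.153% of the gene counts in Hep3B and 0.446% in its HCSC line, against 0.994% for Huh7 and 1.28% for Huh7-C. The order of the 4 cultures was the same for KRT8 and for KRT18, with Hep3B lowest, then Hep3B-C, then Huh7 and Huh7-C highest. The counting intervals of neighbours in this order did not overlap.

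KRT8, the type II partner, stood at 705.4, 1839, 4774 and 5716 CPM in the order Hep3B, Hep3B-C, Huh7, Huh7-C. KRT18, its type I partner, stood at 657.0, 2584, 5004 and 7013 CPM in the same order. When counts were divided by gene length and library total (RPKM), KRT18 ranked 110th of all genes in Hep3B and 5th in Huh7-C, and KRT8 ranked 120th and 15th.

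KRT19, a type I keratin of bile duct and progenitor cells, followed the parental line in the opposite direction. Its level was 73.2 CPM in Hep3B (212 counts) and 19.0 in Hep3B-C (88 counts), but 0.220 in Huh7 (1 count) and 1.62 (7 counts) in the HCSC line from it. Both cultures of the Hep3B lineage were thus above both of the Huh7 lineage, and in Huh7 itself the gene was below the floor. KRT7, the type II duct keratin, had 0, 2, 1 and 1 counts in the order given above for KRT8, which is at or under the floor everywhere.

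KRT23, a type I keratin outside the usual hepatocyte set, stood at 79.8 CPM in Hep3B against 11.6 in its HCSC line, and at 122 CPM in Huh7 against 63.7. It was lower in the HCSC line of each pair. KRT10, best known from the upper layers of the epidermis, stood at 12.4 and 6.25 CPM in the Hep3B pair and at 24.9 and 10.8 CPM in the Huh7 pair. These rest on 36, 29, 113 and 47 counts, and the counting intervals of Hep3B, Hep3B-C and Huh7-C overlapped. KRT20, a type I keratin of intestinal epithelium, was not listed for the Hep3B pair and had 1 and 3 counts in the Huh7 pair. KRT80, a type II keratin, had 1 or 2 counts in each library. No fold was computed for KRT7, KRT20 or KRT80, and a difference in them was not detectable at this depth.

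**Figure D1:**
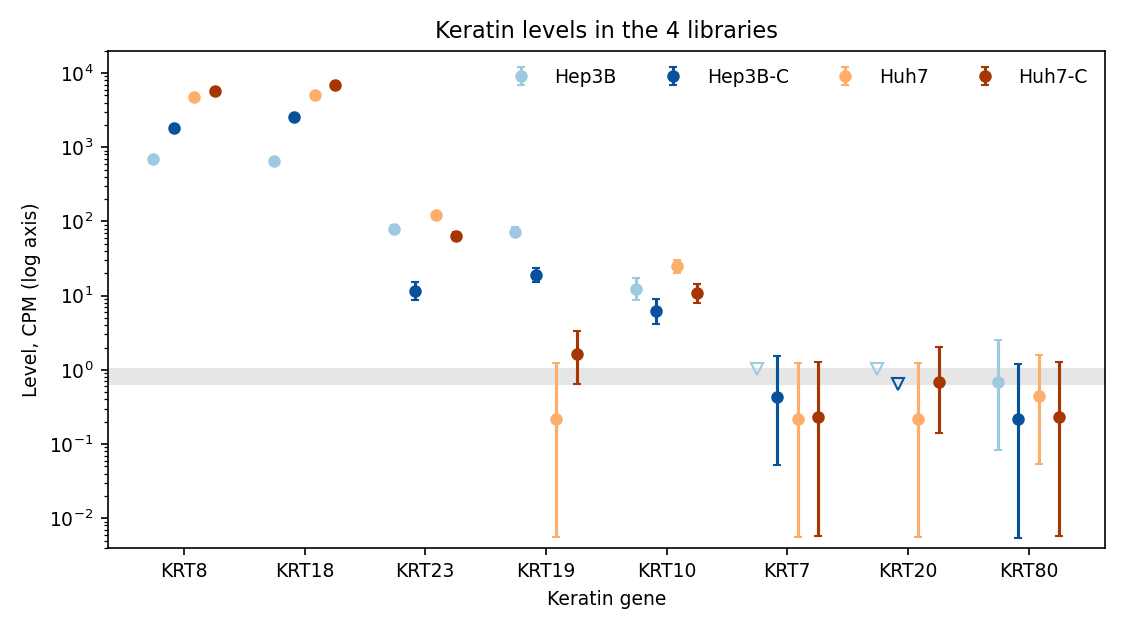
Level of each of the 8 keratin genes in each of the 4 libraries, in CPM on a log axis; points are single libraries and bars are exact 95% Poisson intervals. The grey band spans the level of 3 counts in the 4 libraries and open triangles mark libraries with 0 counts, drawn at that level. KRT8 and KRT18 run from about 657 to 7013 CPM in 1 order of cultures, KRT19 is at most 1.62 CPM in the Huh7 lineage, and KRT7, KRT20 and KRT80 stay at or under the floor.

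The first comparison asked which keratins differ between Hep3B-C and its parent. KRT8 and KRT18 rose in Hep3B-C, by 2.61-fold (95% interval 2.48 to 2.74) and 3.93-fold (3.75 to 4.13). KRT23 fell, 6.86-fold lower in Hep3B-C (5.08 to 9.40), and KRT19 fell, 3.86-fold lower (2.998 to 5.01). KRT10 stood 1.99-fold lower (1.19 to 3.36) and missed the 2-fold limit of a call. Calls were made with the Audic-Claverie test, a Poisson test of a pair of counts, with a change of 2-fold or more and an FDR (Benjamini-Hochberg, over all 15480 genes of the pair) no higher than 0.01. Of the 7 members listed in this pair, 2 were called up and 2 down. Of all genes tested, 13.2% were called up and 30.4% down, 43.6% in either direction, so calls were common in this pair.

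Ratios in the Hep3B pair moved with the base composition and length of the gene. Over genes with at least 20 counts in the pair, the log2 ratio correlated with the GC content of the transcript (Spearman's rho 0.63, across genes, which are not independent replicates) and with gene length (-0.43). In the Huh7 pair these values were -0.06 and 0.31. KRT8 (60.3% GC), KRT18 (58.5%) and KRT19 (61.8%) are GC-rich and short. Genes were ordered by GC content and cut into 10 bins of like size. The bin that holds KRT8 and KRT19 had a median log2 ratio of 0.84, with a 10th to 90th percentile range of -0.96 to 2.16. The bin that holds KRT18 had a median of 0.64 and a range of -1.28 to 2.08. KRT8 (log2 ratio 1.38) and KRT18 (1.98) thus lay within the range of genes of like GC content, and KRT19 (-1.94) lay below it. KRT23 (-2.77, 50.3% GC) lay below the range of -2.15 to 1.20 of its own bin. KRT10 (-0.99) lay within that range.

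**Figure D2:**
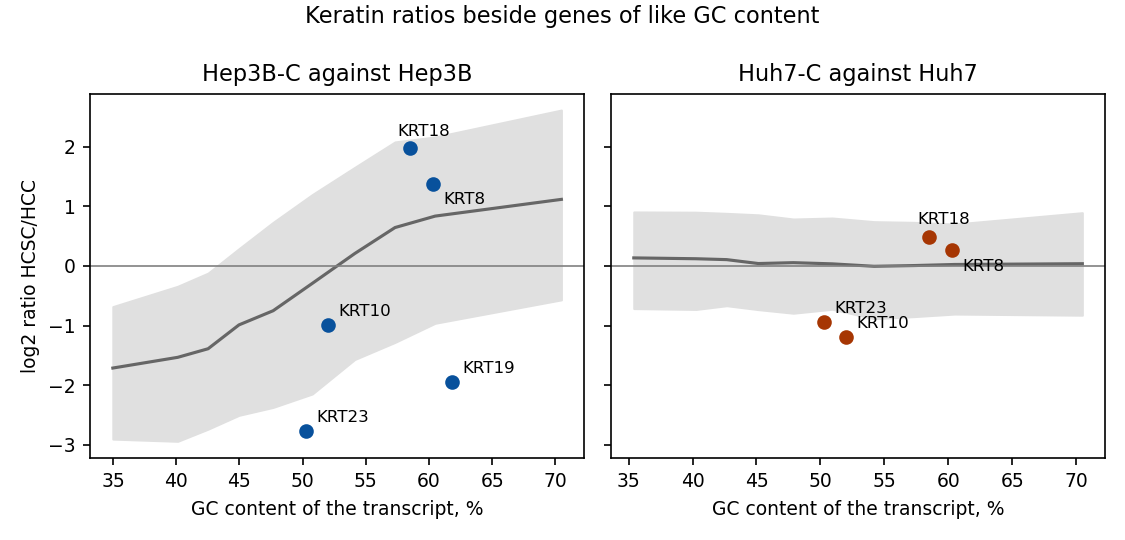
Log2 ratio HCSC/HCC of each keratin with at least 20 counts in the pair against the GC content of its transcript; the line is the median and the grey band the 10th to 90th percentile of all such genes in 10 bins of GC content. In the Hep3B pair the band climbs with GC content and holds KRT8 and KRT18, while KRT19 and KRT23 lie below it. In the Huh7 pair the band is nearly flat.

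With the GC and length trends of the pair removed from each ratio, KRT8 stood at a log2 ratio of -0.16 and KRT18 at 0.40, and neither was called. With TMM library sizes as well, which set the typical gene near 0, they stood at 0.32 and 0.88 and were not called. KRT18 exceeded KRT8 by 0.59 in log2 ratio as counted and by 0.56 with the trends removed. The fitted log2 trends of these genes were nearly equal (1.545 for KRT8 and 1.58 for KRT18), so their removal could hardly change this gap. KRT19 and KRT23 remained down with the trends removed, and KRT10 was then called down as well (log2 ratio -1.55). Of the members 0 were then up and 3 down, beside 689 up and 3456 down of the 15480 genes listed. The typical gene stood at a log2 ratio of -0.45 in this setting. Whether the trend arose in the libraries or in the cells was not tested.

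The second comparison set Huh7-C against Huh7, which lacked the strong GC trend. KRT10 fell in Huh7-C, to 0.436 of its level in Huh7 (95% interval 0.303 to 0.617), and it was the only member called. Of the 8 members, 0 were called up and 1 down, and of all 14807 genes tested 4.19% were called up and 4.15% down, 8.33% in either direction. KRT23 stood at 0.523 of its parental level (0.451 to 0.605), just short of the 2-fold limit. KRT18 stood 1.40-fold higher (1.38 to 1.43) and KRT8 1.20-fold higher (1.18 to 1.22). Their intervals exclude 1, but neither difference reached 2-fold. KRT19 stood 7.33-fold higher on 1 and 7 counts (0.942 to 330), which was not called.

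The size of the change was set side by side between the pairs. The HCSC/HCC ratio of the Hep3B pair was 2.18 times that of the Huh7 pair for KRT8 (95% counting interval 2.07 to 2.29) and 2.81 times for KRT18 (2.67 to 2.96). For KRT23 it was 0.279 times (0.197 to 0.391), a deeper drop in the Hep3B pair. For KRT10 it was 1.15 times (0.607 to 2.18), an interval that holds both a larger and a smaller drop. For KRT19 it was 0.0353 times (0.000781 to 0.284). These intervals cover counting error alone. With GC and length trends removed the order of the pairs turned for both partners: the log2 ratio of KRT8 was -0.16 in the Hep3B pair and 0.40 in the Huh7 pair, and that of KRT18 was 0.40 and 0.68. With TMM sizes as well, KRT8 stood at 0.32 and 0.36 and KRT18 at 0.88 and 0.64. For KRT19 and KRT23 the Hep3B pair stayed the lower under both settings.

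**Figure D3:**
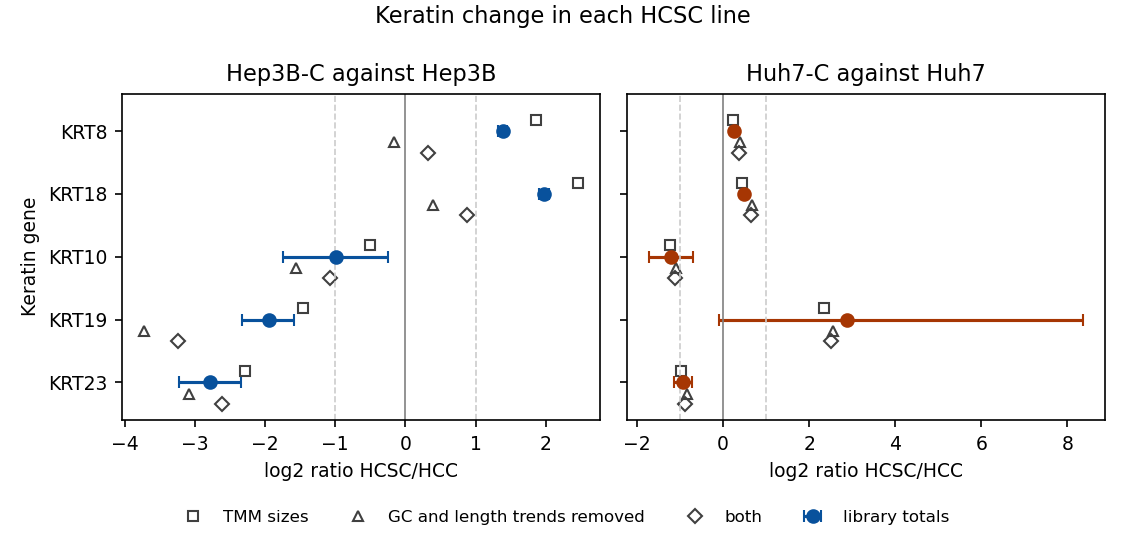
Log2 ratio HCSC/HCC of the 5 keratins above the floor in each pair, with library totals as size (filled points, exact 95% counting intervals) and under 3 other settings (open symbols). Dashed lines mark 2-fold, and the axis of the Huh7 pair is wider. KRT8 and KRT18 lie right of the 2-fold line in the Hep3B pair with library totals or TMM sizes and left of it once GC and length trends are removed, whereas KRT19 and KRT23 stay left of -1 in that pair under each setting shown.

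The balance of KRT8 and KRT18 moved the same way in both pairs. By RPKM, KRT8 stood at 0.877 of KRT18 in Hep3B (95% interval 0.823 to 0.934) and 0.582 in Hep3B-C (0.566 to 0.598). It stood at 0.779 in Huh7 (0.765 to 0.794) and 0.666 in Huh7-C (0.655 to 0.677). KRT8 was thus below its partner in all 4 libraries, and further below it in each HCSC line. The ratio changed by 0.663 times in the Hep3B pair (0.619 to 0.710) and by 0.854 times in the Huh7 pair (0.833 to 0.876). In the Huh7 pair KRT18 exceeded KRT8 by 0.23 in log2 ratio as counted and by 0.28 with the trends removed. The fitted trends were close there too (-0.144 for KRT8 and -0.195 for KRT18). The share of type II keratins in the summed RPKM of all keratins, which KRT8 almost alone sets, was 42.0% in Hep3B and 36.5% in its HCSC line, against 43.3% in Huh7 and 39.7% in its HCSC line. The part of the shared pseudogene sequence and of the overlapping exons in this balance was not tested.

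**Figure D4:**
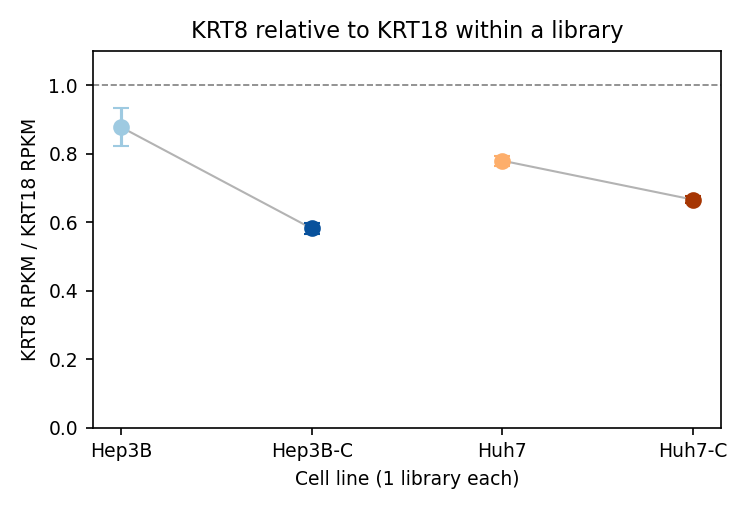
KRT8 RPKM divided by KRT18 RPKM in each of the 4 libraries, with 95% counting intervals; grey lines join an HCSC line to its parent and the dashed line marks equal levels. The ratio is lower in the HCSC line of each pair, 0.582 against 0.877 and 0.666 against 0.779.

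Over both lines together, no keratin was called between HCSC and HCC. The fit used edgeR's quasi-likelihood test blocked on parental line, with 1 residual degree of freedom, and 5 members passed its filter on low counts. The fitted log2 differences were 0.99 for KRT8, 1.40 for KRT18, -0.23 for KRT19, -0.93 for KRT10 and -1.67 for KRT23, each with a Benjamini-Hochberg adjusted p of 1. By edgeR 0 of the 5 had an unadjusted p under 0.05, and by DESeq2 0 were called and 2, KRT18 and KRT23, had one. Of all 11691 genes tested by edgeR, 0.0342% were called up and 0.0428% down, 0.077% in either direction, and DESeq2 called 0.171%. With the GC and length trends of each pair as offsets in the same blocked fit, KRT23 was called lower in HCSC (log2 difference -1.77, edgeR adjusted p = 0.03), where 1.58% of all genes were called. This alternative was chosen after seeing the data.

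The parental lines were compared next, within each group. Huh7 stood above Hep3B by 6.77-fold for KRT8 (95% counting interval 6.47 to 7.09) and 7.62-fold for KRT18 (7.27 to 7.99). Between the HCSC lines the distance was 3.11-fold (3.03 to 3.19) and 2.71-fold (2.66 to 2.77). KRT19 was 332-fold lower in Huh7 than in Hep3B (59.0 to 13180) and 11.7-fold lower in Huh7-C than in Hep3B-C (5.46 to 30.1). KRT23 was higher in the Huh7 lineage, 1.53-fold (1.31 to 1.79) between the parents and 5.47-fold (4.08 to 7.47) between the HCSC lines. KRT10 was 2.00-fold (1.37 to 3.003) and 1.74-fold (1.07 to 2.86) higher. Whether ratios between the lines moved with GC content or gene length was not examined, and KRT8, KRT18 and KRT19 are GC-rich.

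In the line term of the same edgeR fit, KRT19 was called, with a log2 difference of -5.44 for the Huh7 against the Hep3B lineage (Benjamini-Hochberg adjusted p = 6.2e-05). It was the only member called of 5 tested, where 3.65% of all genes were called up and 4.82% down, 8.48% in either direction. KRT8 (2.18, edgeR adjusted p = 0.13), KRT18 (2.17, adjusted p = 0.14), KRT23 (1.5, adjusted p = 0.44) and KRT10 (0.89, adjusted p = 0.77) were not called. DESeq2 called KRT8 (adjusted p = 0.028) and KRT18 (adjusted p = 0.038) as well, where it called 6.19% of all genes. With the GC and length offsets, edgeR called KRT8, KRT18, KRT19 and KRT23, where 36.9% of all genes were called. These offsets adjust each HCSC library to its parent, and no trend between the parental lines was removed. In fits without 1 library, which also had to drop the group term, KRT19 was not called without Huh7, where the smallest edgeR adjusted p among the members was 0.16. The origin of a line and its culture history cannot be told apart here.

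Of the other keratins, KRT15 and KRT222 reached 10 counts in a library, both type I and both in the Huh7 lineage. KRT15, a keratin of basal epithelial cells, had 1 and 0 counts in the Hep3B pair and 15 and 100 in the Huh7 pair. It rose 6.98-fold in Huh7-C (95% interval 4.04 to 12.9). KRT222 had 1, 1, 47 and 24 counts and stood at 0.535 of its parental level in Huh7-C (0.313 to 0.892), which was not called.

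Of the 15 other intermediate filament genes examined, 9 were listed in the Hep3B pair and 13 in the Huh7 pair. In Hep3B-C, LMNA, which encodes the A-type nuclear lamins, rose 4.82-fold (4.24 to 5.49). VIM, the vimentin of mesenchymal cells, fell from 498 CPM in Hep3B to 65.5 in Hep3B-C. These were the only such genes called there as counted, and both calls held with GC and length trends removed. The log2 ratio of LMNA then went from 2.27 to 1.1, near the 2-fold limit. Of the 9 listed genes 1 was up and 4 were down in that setting, beside 689 up and 3456 down of all 15480 genes. In the Huh7 pair SYNM alone was called, at 2.07-fold, and this call was lost with TMM sizes or with the trends removed. Of all genes in that pair 4.19% were called up and 4.15% down.

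The desmosome and linker genes, whose products anchor keratin filaments to the membrane, were described as a list. In the Hep3B pair 3 of 19 listed were called up and 7 down, and in the Huh7 pair 3 of 21 up and 0 down. Of all genes in the Hep3B pair 13.2% were called up and 30.4% down, so its counts for the list were near the background. In the Huh7 pair 4.19% of all genes were called up and 4.15% down. With GC and length trends removed 2 of the list were up and 3 down in the Hep3B pair, beside 689 and 3456 of all 15480 genes. With TMM sizes 5 were up and 6 down, beside 3056 and 3134 of all genes. DSP, the desmoplakin that holds keratin filaments at desmosomes, fell from 2799 CPM in Hep3B to 437 in Hep3B-C, and it stayed down with the trends removed (log2 ratio -1.58), where KRT8 stood at -0.16 and KRT18 at 0.40. DST, a linker of the plakin family, fell from 543 to 69.8 CPM, a call lost with GC and length trends removed. PKP3, a desmosomal plaque protein, rose from 4 to 175 counts in Hep3B-C. EVPL, the envoplakin, rose in both pairs, from 1 to 40 counts with Hep3B as the parent and from 2 to 119 with Huh7. DSC3, a desmosomal cadherin, rose 6.81-fold in Huh7-C (3.86 to 12.9). CD151, a tetraspanin of hemidesmosomes, was called 2.65-fold higher in Hep3B-C, and that call was also lost with the trends removed.

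The 14-3-3 proteins bind phosphorylated keratins, KRT18 among them. Of the 7 genes, SFN alone was called, beside 13.2% of all genes up and 30.4% down in the Hep3B pair. In the Huh7 pair 4.19% of all genes were called up and 4.15% down. SFN rose in both pairs, 13.0-fold in Hep3B-C (5.39 to 40.8) and 5.92-fold in Huh7-C (3.66 to 10.1). With GC and length trends removed it stayed called. Its log2 ratio then went from 3.57 to 1.68 in the Hep3B pair and from 2.535 to 2.71 in the Huh7 pair. Among epithelial transcription factors, 0 of 12 were called up and 5 down in Hep3B-C, beside 13.2% and 30.4% of all genes. EHF fell there from 213 to 8 counts. KLF5, a factor of basal and progenitor epithelium, fell 9.35-fold in Hep3B-C (5.03 to 19.0) and rose 2.62-fold in Huh7-C (2.32 to 2.97).

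KRT19 and KRT7 were set beside the rest of the bile duct and progenitor markers. In the Hep3B pair 1 of 9 listed markers was called up and 6 down, KRT19 among them, beside 13.2% and 30.4% of all genes. The summed level went from 2922 to 616 CPM. SPP1 rose from 3 to 137 counts, while CD24 fell 7.82-fold (7.31 to 8.38). In the Huh7 pair 1 of 10 was called up and 1 down, beside 4.19% and 4.15% of all genes. The summed level went from 1225 to 616 CPM. CD24 alone went from 1022 to 387 CPM there, more than the drop of the whole sum, and the median log2 ratio of the list was -0.07. CFTR was at 0 counts in Huh7 and 80 in Huh7-C, at least 27.9-fold higher against the floor of 3 counts, and CD24 fell 2.64-fold (2.50 to 2.80). In these bulk libraries fewer cells of a type and less RNA per cell cannot be told apart. The mesenchymal markers summed to 5986 CPM in Hep3B and 2161 in Hep3B-C, with 0 of 12 up and 4 down, near the 30.4% of all genes called down. With trends removed 2 were down and with TMM sizes 1, beside 3456 and 3134 of the 15480 genes listed. The mesenchymal sum was 5043 CPM in Huh7 and 5335 in Huh7-C. The hepatocyte markers moved as well. In Hep3B-C 3 of 10 were called up and 2 down (58060 to 71600 CPM in sum), beside 13.2% and 30.4% of all genes. In Huh7-C 1 was up and 4 down (51540 to 26890 CPM), beside 4.19% and 4.15%. With trends removed these were 1 up and 2 down, and 1 up and 4 down. Of all genes, 689 were then up and 3456 down in the Hep3B pair (15480 listed). In the Huh7 pair 434 were up and 599 down (14807 listed). In the Huh7 pair AHSG fell 10.6-fold (9.72 to 11.6) and TF fell 4.84-fold (4.57 to 5.14). ALB rose 2.51-fold there (2.26 to 2.80), and KRT8 and KRT18 stood higher. The part of these markers in the keratin differences was not tested.

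The genes whose profile over the 4 libraries lay nearest to each keratin were found among 9909 genes with at least 50 counts in 1 library, by the Euclidean distance between centred log2(CPM + 0.5) values. PCBD1 was nearest to KRT8 (distance 0.19), GCNT3 to KRT18 (0.22), SETBP1 to KRT19 (0.31), SLC22A23 to KRT10 (0.09) and NDRG1 to KRT23 (0.20). KRT18 was in place 33 among the neighbours of KRT8, and KRT8 in place 19 among those of KRT18, at a distance of 0.45. KRT19 was in place 9777 for KRT8, near the far end of the list. These levels were not adjusted for GC content or gene length, and whether neighbours share GC content was not examined. In Huh7 and Huh7-C, KRT19 had 1 and 7 counts and SETBP1 0 and 3, near or under the floor. With 4 libraries, these places are a description of likeness.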

How the data were processed

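RNA sequencing libraries of Hep3B, Huh7, Hep3B-C and Huh7-C were sequenced on an Illumina Genome Analyzer. The authors filtered the reads, aligned them with NextGENe to an NCBI build older than GRCh38 and deposited whole-number read counts per gene with the gene length in bases; the annotation, strand and treatment of multiply mapped reads are not given in the sources used here. Deposited counts ranged from 2896418 to 4641927 per library, which sets the counting error; a pair's files list the same genes.

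CPM and RPKM were computed from counts, deposited lengths and total gene counts. Log2 ratios had 0.5 added to each count. Intervals (95%) are exact Poisson for levels and exact binomial (Clopper-Pearson) for shares of counts. They are exact conditional binomial for ratios of 1 gene between libraries and of KRT8 to KRT18 within a library. Between pairs they are exact conditional odds ratios. For the change of KRT8 per KRT18 within a pair they are normal on the log scale. All cover counting error only. Pairs were compared by the 2-sided Audic-Claverie test (FDR at most 0.01, at least 2-fold), after the study's thresholds. All 4 libraries were fitted with edgeR 4.0.16 (TMM, filterByExpr, FDR at most 0.05) in R 4.3.3, with parental line as a block; genes absent from a pair's files counted as 0. The labels pair each HCSC line with its parent, and deviations from the group means correlated at 0.56 within a line over 12770 genes. DESeq2 1.42.0 was an alternative, as were other sizes, filters, added counts, left-out libraries, an assumed biological coefficient of variation (BCV) of 0.4, and removal of GC and length trends (lowess, genes with at least 20 counts). The tests were tested on simulated data. Analyses otherwise used Python 3.11.15 with scipy 1.17.1 and statsmodels 0.14.6.

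Genes were joined by Entrez ID to GENCODE 29 (GRCh38), which gave GC content for 99.2% and 99.3% of these genes in the Hep3B and Huh7 pairs; sequences are those of GENCODE transcripts. The members and lists were chosen with earlier results of these data known. Named genes were the members, other keratins with at least 10 counts in a library, and from each list those called in both pairs or among the 2 largest calls each way with at least 50 counts; some are given only within counts. A sequence withheld for evaluation is not reported here.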

Additional observations from a re-analysis of the deposited data

Results flagged for a closer look

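Among the keratins above the floor and the listed genes called in both pairs, 4 genes stood above the parent in the HCSC line of one pair and below it in the other. Genes of the lists called in 1 pair or none were not searched for such opposite directions. The difference in log2 ratio, Hep3B pair minus Huh7 pair, was -4.33 for KRT19, -4.57 for KLF5, 4.23 for APOA1 and 2.64 for SERPINA1. With 1 library per line these differences were not tested against variation between cultures. KRT19 rests on 1 and 7 counts in the Huh7 pair, where its ratio was not called. KLF5 fell in Hep3B-C and rose in Huh7-C, and both calls held with GC and length trends removed. APOA1 and SERPINA1, the apolipoprotein A-I and alpha-1 antitrypsin genes of hepatocytes, were called up in the Hep3B pair and down in the Huh7 pair. With GC and length trends removed, their rise in Hep3B-C was no longer called (log2 ratios 0.30 and 0.94), and their fall in Huh7-C was.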

How the results depend on the processing

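Single keratins were followed through 60 alternative values, of which 51 kept direction and call, 4 lost and 4 gained a call, and 1 turned: KRT8 in the Hep3B pair, from 1.38 to -0.16 on the log2 scale with GC and length trends removed. In that pair KRT8 also lost its call with the length trend alone removed (0.76), and the typical gene stood at -0.55. KRT10 gained one there with the length trend (-1.39), both trends (-1.55), or both trends and TMM sizes (-1.07). An assumed BCV of 0.4 left 0 members called in either pair. DESeq2 size factors gave 2 in the Huh7 pair, where KRT23 then passed the 2-fold limit. The share of all genes called with the assumed BCV or with DESeq2 size factors is not given here. Over both lines, HCSC against HCC gave 0 without the replicate block, 0 to 0 with each library left out, and 1 with the replicate block and GC and length trends removed. The line term gave 3 members with DESeq2 (6.19% of all genes called). It gave 4 with the replicate block and GC and length trends removed (36.9% of all genes called). The members it called changed with the library left out. Fits without 1 library also had to drop the other term, since too few libraries are left for both, so such fits change both. A lone sample is assumed there to vary like the others. The share of all genes called in such fits is not given here, so their calls are not read as a result about the keratins. The type II share was 46.1%, 41.2%, 48.0% and 44.5% by sums of CPM, and 0.334%, 1.36%, 0.316% and 0.372% without KRT8 and KRT18, in the order Hep3B, Hep3B-C, Huh7 and Huh7-C. KRT7, KRT20 and KRT80 gave no value under any setting. Alternatives that name TMM sizes or the block together with the trends were chosen after seeing the data. Depth limits KRT10 and, in the Huh7 lineage, KRT19.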
